A study of Caenorhabditis elegans with 6 samples.

Results

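The loci described here are 94 abundant sources of 22G RNAs in Caenorhabditis elegans that carry only a clone-based identifier, such as ZC247.1, in the deposited 22G table of 46761 features. They were chosen by their measured values: a mean of at least 2000 normalized reads over the 6 libraries and a High to Low ratio of the group means, each plus 1, between 0.5 and 2, with 8 identifiers left out by name. Of 19922 features with a clone-based identifier, 97 reached the mean of 2000, all 97 lay inside the ratio limits, and 3 of these were among the identifiers left out. The level therefore made the choice, and the ratio limits removed no such locus. Because the level and the High to Low ratio of the 22G class chose the loci, both are given as a description, and a count of loci past a threshold in that class stands beside the share of all features and supports nothing.

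The worms were gravid F2 adults of strain BCN1050 in the N2 background, and all 6 libraries share its genotype: the unc-119(ed3) III mutation and the integrated array crgIs1002, in which the daf-21 promoter drives mCherry with the unc-54 3′ UTR beside a functional unc-119(+) copy. The P0 grandparents had lived at 25 °C for the High group (3 libraries) and at 16 °C for the Low group (3 libraries). P0 animals of both groups were moved to 20 °C as L4 larvae, 12 to a plate. Their F1 progeny were bleached 4.5 days later, and the F2 grew for 72 h at 20 °C at 1000 worms per plate, so the comparison asks how small RNAs of grandoffspring differ with the temperature of the P0. RNA came from many whole worms per library, so fewer cells of a type and less small RNA per cell cannot be told apart. The submitters call the libraries biological replicates, and p-values measure only the spread between these samples.

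22G RNAs are secondary small interfering RNAs that start with guanosine and that RNA-dependent RNA polymerases such as EGO-1 and RRF-1 copy from a target transcript. Those loaded into WAGO Argonautes, among them HRDE-1 in germline nuclei, silence transposons, pseudogenes and many poorly annotated genes and can carry silencing across generations, whereas CSR-1 binds 22G RNAs against expressed germline genes. Their production is primed at some loci by 26G RNAs, which ERGO-1, ALG-3 and ALG-4 bind, and at others by 21U RNAs, the piRNAs of worms, which PRG-1 binds. The deposited tables count reads under the names of these 3 classes per annotated feature, and a normalized read count is the number of reads divided by a size factor of the library. How each class was defined is not given. Whether reads counted as 21U at a locus are piRNAs, and whether its 21U or 26G reads prime its 22G RNAs, was not tested. Recovered 22G reads ranged from 1380170 to 2685999 per library, 26G reads from 18704 to 37706 and 21U reads from 37630 to 59648.

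Of the 94 loci, 93 matched a gene of Ensembl release 115 (assembly WBcel235), and F22H10.4 did not. The matched loci were 59 protein-coding genes (62.8% of the 94), 29 pseudogenes (30.9%), 4 genes of the ncRNA biotype and 1 lincRNA, T09F5.12. Among the 4805 features with a clone-based identifier that were tested in the 22G class, 78.8% were protein coding and 8.30% were pseudogenes. Among 62 features with a gene name at the same level and inside the same ratio limits, 45 were protein coding, 5 were lincRNAs, 2 were rRNAs, 10 did not match and 0 were annotated as pseudogenes. Of the 404 pseudogenes among all 9402 features tested in the 22G class, 399 had a clone-based identifier. The 0 among named features therefore sets no contrast with the 94 loci. These shares were not tested against each other. The matched loci lay on all chromosomes, with 17 on I, 21 on II, 8 on III, 20 on IV, 13 on V and 14 on X. The median exonic length was 990 bp over the 93 matched loci and 1106 bp over 4737 matched features with a clone-based identifier.

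A current RefSeq gene name was found for 3 of the 94 loci. D2096.1 is timm-17B.2, of the TIM17 family of mitochondrial protein import channels, and C36A4.5 and F25D7.4 are maph-1.3 and maph-1.2, homologs of microtubule-associated proteins. The sources used here give no role for the others, which are described by biotype and by their small RNAs.

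In the 22G class the loci had a median of 3370.4 normalized reads over the 6 libraries, with quartiles of 2587 and 5269.9 and a range from 2005 to 38186. The 10 loci with at least 10000 held 32.1% of the summed count of the 94, and ZC247.1 alone held 7.94%. Just inside the level limit were R09H3.3 with 2005 and the pair W09B7.1 and F07B7.1 with 2007 each, and just outside were C14B1.7 with 1984, F46F2.4 with 1974 and Y54E2A.4 with 1953. There was no gap in level at the limit. The loci together made up 22.7%, 22.5% and 22.4% of all 22G signal in the High libraries, against 23.6%, 24.3% and 23.98% in the Low libraries. The means were 22.5% ± 0.152 in High worms and 23.98% ± 0.342 in Low worms (SD, n = 3 each), and the 62 named features made up 13.7% ± 0.251 in High worms and 14.97% ± 0.689 in Low worms.

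ZC247.1, a protein-coding gene on chromosome I, had 36292, 39728 and 38789.7 normalized 22G reads in the High libraries, against 37368, 41322 and 35614 in the Low libraries. The groups overlapped, with means of 38270 ± 1776 for High and 38101 ± 2924 for Low (SD over 3 libraries each). W09C5.12, also protein coding on chromosome I, had 18269, 18083 and 18413 in High, against 19793, 21315 and 20576 in Low, so every High library lay below every Low library. W03H9.2 on chromosome II had 15699, 14548 and 14152 in High, against 18869, 16380.1 and 16033 in Low. Its groups were again apart, with High lower, by a margin smaller than the range within either group.

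The pseudogene Y52B11A.18 on chromosome I had 12905, 11322 and 10911 normalized 22G reads in High, against 17646, 16025 and 13717 in Low. All High libraries lay below all Low libraries, with a mean of 11712 ± 1053 in High and 15796 ± 1974 in Low. The protein-coding locus Y71A12B.10 had 11949, 12107 and 12071 in High, against 12252, 12340.4 and 11511 in Low. The lincRNA T09F5.12 on chromosome V averaged 11198 ± 226 in High and 11269 ± 502 in Low. In both of these loci the groups overlapped and their means differed by less than the SD of the Low libraries. The pseudogene K08B4.5 on chromosome IV averaged 10409 ± 234 in High and 10169 ± 500 in Low, with overlapping groups, and the pseudogene Y46H3C.6 on chromosome V averaged 9928 ± 404 in High and 11657 ± 799 in Low, with High libraries below Low libraries.

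**Figure D1:**
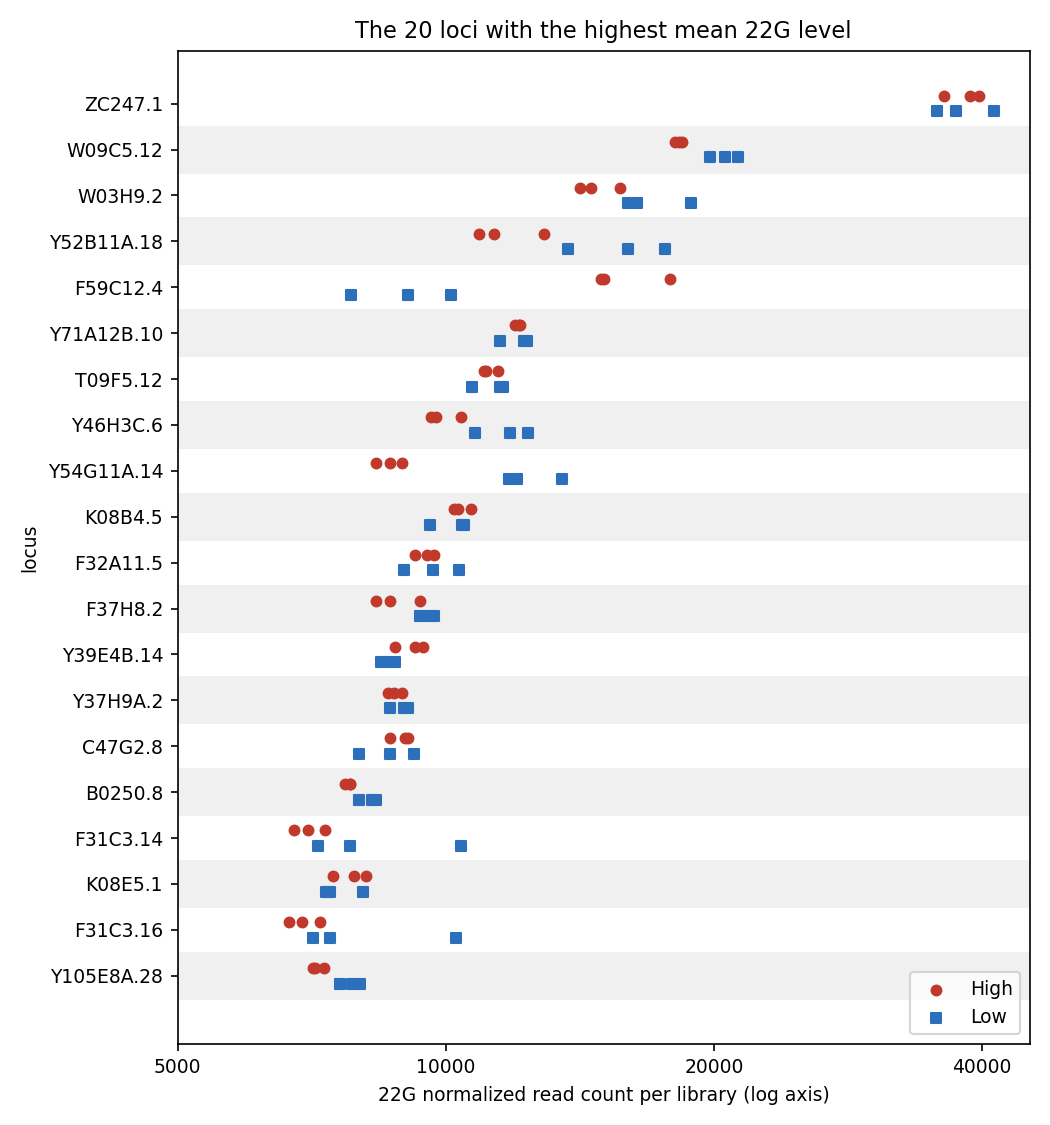
22G normalized read count per library (log axis) for the 20 loci with the highest mean, with 3 High libraries as circles above 3 Low libraries as squares in each row. ZC247.1 stands at 36292 to 39728 in High and 35614 to 41322 in Low, F59C12.4 is the row with High libraries far to the right of Low libraries, and F31C3.14 and F31C3.16 each have 1 Low library, replicate 3, far to the right of the other 5.

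Counts rank the loci by reads, and a count grows with the length of a locus, so densities were computed per kilobase of exon (93 loci with an annotated length). On that scale the median was 3589 normalized 22G reads per exonic kb, with quartiles of 2255 and 7327. ZC247.1, first by count, has 13329 bp of exons and stood at 2865 per kb, below the median. F59C12.4, a protein-coding locus on the X chromosome with 150 bp of exons, had the highest density, 83253 per kb. C01F6.14 followed with 26553 per kb, F31C3.16 with 25396, W09C5.12 with 25271 and Y52B11A.18 with 19183. The lowest densities were 738 per kb in the pseudogene C33E10.4, 938 in the pseudogene Y54G2A.21, 1034 in F25D7.4 (maph-1.2), 1111 in Y71A12B.18 and 1170.1 in CD4.8. The shortest locus of the 93 was thus the densest, and the longest, ZC247.1, was of middling density.

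The spread between replicates was small for most of these loci. The coefficient of variation (CV), pooled within groups, had a median of 4.87% with quartiles of 3.39% and 6.57%, and it was under 5% in 49 loci and over 10% in 7. Counting error alone would give a median of 1.75% at this depth, with 0.521% for ZC247.1 and up to 2.27%, and this covers counting error only. For the 62 named features the median CV was 4.51%, with 36 under 5% and 4 over 10%.

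F10E7.2 on chromosome II had the smallest CV, 1.51%, with 4289.5, 4279.5 and 4279.3 normalized 22G reads in High, against 4728, 4626 and 4828 in Low. T26E3.7 on chromosome I had 3894, 3992 and 3922 in High, against 3863, 4009 and 3915 in Low, with a CV of 1.61%. The spread of both loci was that of counting error, 1.51% for F10E7.2 and 1.62% for T26E3.7; the groups of T26E3.7 overlapped, and those of F10E7.2 did not, with High lower. Y77E11A.3, of the ncRNA biotype, had 3761, 3882 and 3688 in High, against 4386, 4377 and 4388 in Low. It thus differed between groups by more than its replicates differed, at a ratio of 0.862. The largest CVs were those of F31C3.16 (15.3%) and F31C3.14 (14.5%), followed by Y20F4.4 (12.8%), F59C12.4 (11.7%) and Y52B11A.18 (10.9%).

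**Figure D2:**
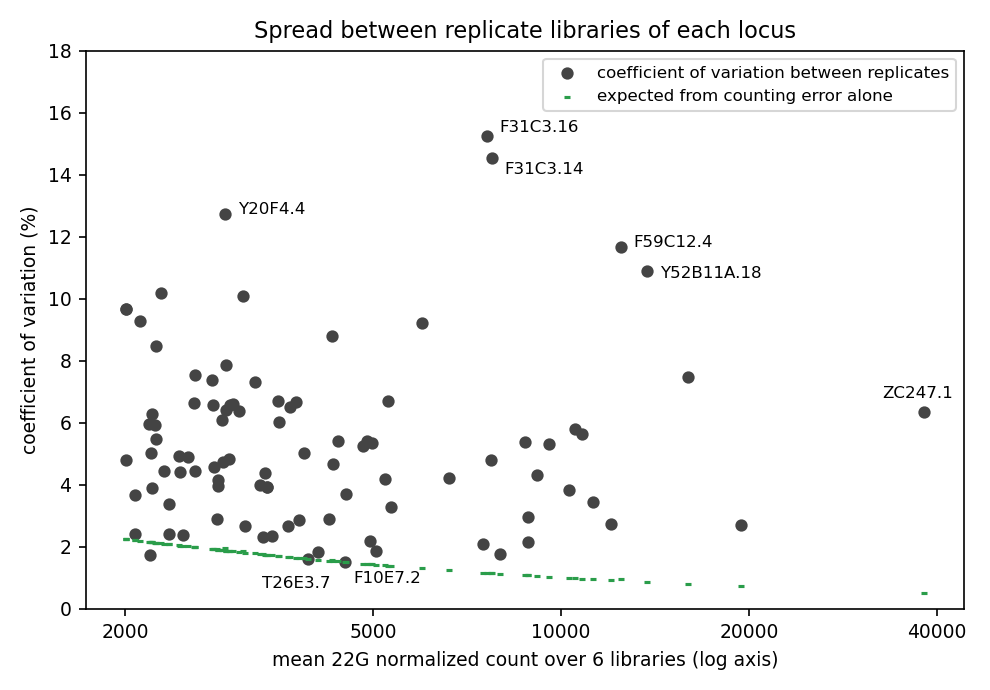
Coefficient of variation between replicate libraries, pooled within the High and Low groups (percent), against the mean 22G normalized count over 6 libraries (log axis), 1 point per locus, with a green dash at the value expected from counting error alone. Most points lie between 2% and 8%, F10E7.2 and T26E3.7 lie on the green dashes, and F31C3.16 and F31C3.14 are highest at 15.3% and 14.5%.

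The ratio of High to Low group means, which entered the choice of the loci, had a median of 0.963 and quartiles of 0.904 and 1.01. It was within 10% of 1 in 62 loci, over 1.5 in 2 and under 0.75 in 6, and it was below 1 in 67 loci and above 1 in 27. The median log2 difference, High minus Low, was -0.05 over the 94 loci and 0.01 over all 9402 features tested, on the scale of log2 of the normalized count plus 1. In limma with Benjamini-Hochberg adjustment over the whole table, 14 of the 94 lay past an adjusted p of 0.05, beside 8.3% of all features tested. Of these 14, 2 were higher in High worms, beside 5.64% of all features, and 12 were lower, beside 2.66%. The groups did not overlap in 33 loci, beside 22.7% of all features; High lay above Low in 4, beside 12.8%, and below Low in 29, beside 9.97%. Since the level and the ratio made the choice, nothing is read from these counts.

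F59C12.4 had the highest ratio, 1.77, with 17879, 15052 and 14944.5 normalized 22G reads in High, against 10137, 9080 and 7835 in Low. Every High library lay above every Low library, and the means were 15958 ± 1664 in High and 9017 ± 1152 in Low. Y20F4.4, a protein-coding locus on chromosome I, had a ratio of 1.72, with 3193, 3916 and 3868 in High, against 2473, 2008 and 1904 in Low. These are the 2 loci of the set with a ratio over 1.5, and in both the groups were apart.

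Y53F4B.17, a protein-coding locus on chromosome II, had the lowest ratio, 0.652, with 2189.9, 2323 and 2804 normalized 22G reads in High, against 3929.6, 3763 and 3531 in Low. Y54G11A.14, also on chromosome II, had 8929, 8661 and 8355 in High, against 13498, 12035 and 11762 in Low, a ratio of 0.696. In both loci every High library was lower than every Low library. The pseudogene Y54G2A.21 on chromosome IV averaged 2359 ± 123 in High and 3383 ± 143 in Low, a ratio of 0.697, and the pseudogene Y67D8C.23 on the same chromosome averaged 3614 ± 428 in High and 4956 ± 194 in Low, a ratio of 0.729. D2096.1 (timm-17B.2) had 4547, 4468 and 4259 in High, against 6263, 6127 and 5702 in Low, a ratio of 0.734. The maph genes showed no such gap: C36A4.5 (maph-1.3) averaged 3662 ± 122 in High and 3683 ± 315 in Low, F25D7.4 (maph-1.2) averaged 3049 ± 149.5 in High and 2904 ± 230.3 in Low, and the groups overlapped in both.

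**Figure D3:**
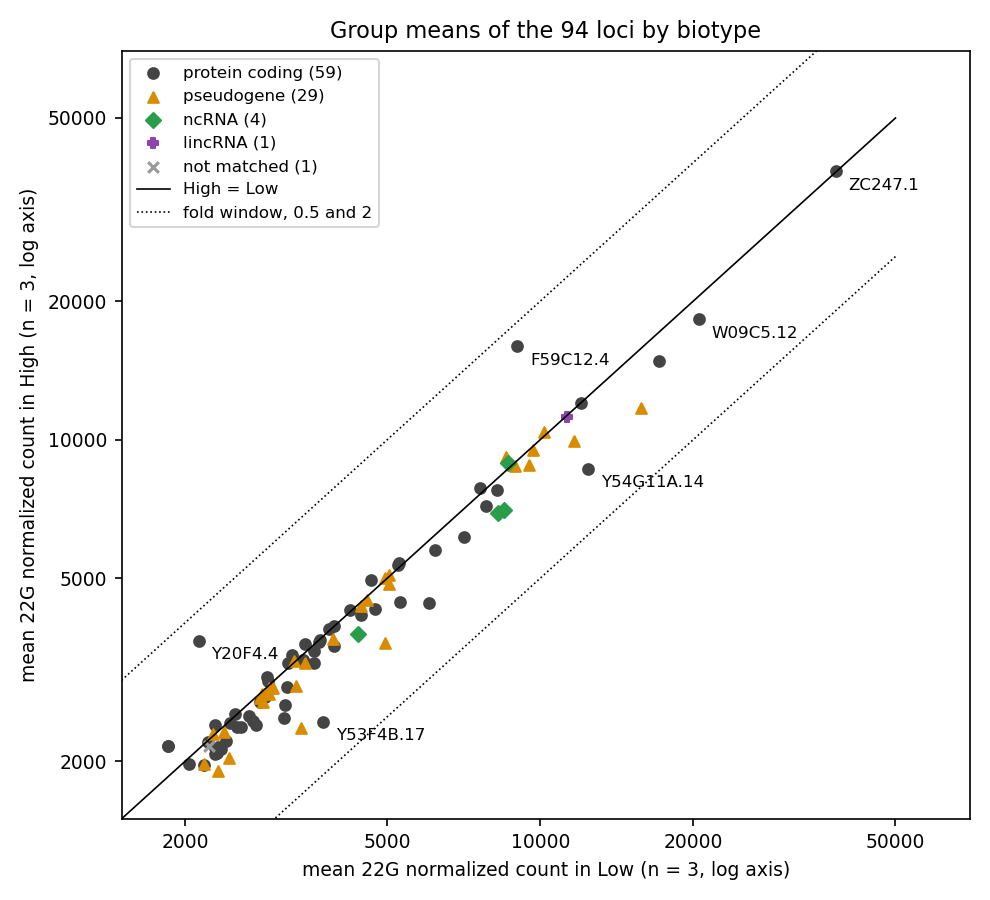
Mean 22G normalized count of each locus in High (vertical) against Low (horizontal), both on log axes with n = 3 libraries per mean, marked by biotype; the solid line is equality and the dotted lines are the ratio limits of 0.5 and 2. The points follow the solid line, none reaches a dotted line, F59C12.4 and Y20F4.4 lie farthest above it at ratios of 1.77 and 1.72, and Y53F4B.17 and Y54G11A.14 lie farthest below it at 0.652 and 0.696.

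By biotype, the 59 protein-coding loci had a median count of 3331 normalized 22G reads and a median ratio of 0.957, and the 29 pseudogenes had a median count of 3357 and a median ratio of 0.968. Per exonic kb the medians were 3253 for protein-coding loci and 3861 for pseudogenes, and the median CVs were 5.04% and 4.57%. All High libraries lay above all Low libraries in 3 of 59 protein-coding loci and 1 of 29 pseudogenes, beside 12.8% of all features. They lay below in 18 protein-coding loci and 10 pseudogenes, beside 9.97%. Since the 22G level and ratio made the choice, nothing is read from these counts either. The 4 loci of the ncRNA biotype, F31C3.14, F31C3.16, C47G2.8 and Y77E11A.3, had a median density of 10454 per exonic kb. By chromosome the median ratio ranged from 0.908 on IV to 1.00 on III, and no locus on X had enough 26G reads to be tested in that class.

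Some loci are not independent measurements. AC8.3 and AC8.10 on the X chromosome had identical values in every library, as did W09B7.1 and F07B7.1 on chromosome V. Nearly equal profiles, within 10% in every library and with a correlation of at least 0.99 over the 6 libraries, were found for F31C3.14 with F31C3.16 (largest difference 5.16%), Y24F12A.3 with Y24F12A.4 (7.44%) and C36A4.11 on chromosome III with K06B9.6 on chromosome IV (3.89%). How reads shared by such pairs were counted is not known, so their individual levels are uncertain. With each such pair counted once, the share of the 22G signal was 21.7% ± 0.145 in High and 23.1% ± 0.361 in Low. No feature outside the set had the same values as a locus in it.

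In WBcel235, 30 of the 94 loci overlap another gene that is not a piRNA gene, on the opposite strand in 20 and on the same strand in 10. The strand setting of the counts is not given in the sources. In 21 of 23 pairs on opposite strands whose partner was matched to a feature, the partner had under 5% of the count of the locus, not scaled by length. W09C5.9 had a mean of 10.5 normalized 22G reads opposite W09C5.12 with 19408, and T20F10.10 was listed at 0 opposite ZC247.1. The partner of F31C3.16 was not matched to a feature and is not among the 23. Among the 23, the exceptions were anr-35, an antisense RNA, with 710.3 opposite F37H8.2, and rrn-3.1 opposite F31C3.14. Among overlaps on the same strand, W08F4.12 (2520.3) shares exons with the F-box gene fbxb-14 (6631), and W09H1.3 and W09H1.4 share exons with each other. The levels of these 4 genes are therefore uncertain.

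F31C3.14 and F31C3.16 lie at the ribosomal RNA genes of chromosome I. F31C3.14 overlaps rrn-3.1, which encodes 26S ribosomal RNA, on the opposite strand, and F31C3.16 overlaps an rRNA pseudogene there. Small RNAs complementary to ribosomal RNA are known in worms as risiRNAs. Whether the reads counted at these 2 loci are complementary to ribosomal RNA or come from it was not tested, because the strand counted is not given. F31C3.14 had 7316, 6749.6 and 6999.6 normalized 22G reads in High, against 7812, 7188 and 10409 in Low, and F31C3.16 had 7218, 6665 and 6892 in High, against 7409, 7099.9 and 10277 in Low. In both, Low replicate 3 was far above the other libraries, and the groups overlapped. The feature rrn-3.1 itself had 3789, 4721 and 5413 in High, against 1226, 1155 and 1620.4 in Low, so every High library was above every Low library, unlike in F31C3.14.

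The 26G class was not used to choose the loci. A 26G read was seen for 91 of the 94, but 74 fell under the mean of 5 normalized reads needed for a test and 24 had a mean under 1, so a 26G difference was not detectable in most of them at this depth. Of the 62 named features, 8 reached the minimum. Of 20 loci tested, 0 passed limma with Benjamini-Hochberg adjustment over all 272 features tested, beside 0% of all features, and 0 of the 20 and 3 of the 272 had an unadjusted p under 0.05; on recovered reads, edgeR called 0 of the 20 and DESeq2 0 of the 5 to which it gave an adjusted p. The smallest adjusted p of a locus by limma was 0.518. The median log2 difference was -0.14 over the 20 loci and -0.53 over all features tested, and 18 of the 20 lay above that overall median. Only those loci with enough reads entered these numbers. The overall median moved with scaling, to -0.13 with TMM and 0.09 with equal library totals, so the sign of a 26G difference depends on the scaling. The normalized 26G total of Low replicate 1 was 57141, against 17491 to 25760 in the other 5 libraries, and its part in these results was not tested beyond leaving it out.

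F31C3.14 had the most 26G reads, with 1362, 1190.2 and 1483 normalized reads in High, against 2363, 1052 and 2098 in Low. The groups overlapped, and the log2 difference was -0.37 ± 0.36 (SE; adjusted p = 0.619 by limma), but positive, at 0.051, with TMM scaling and, at 0.30, with equal totals. F31C3.16 averaged 646 ± 48.4 in High and 740.1 ± 345 in Low. Together they made most of the 26G signal of the set: the 94 loci held 15.2% ± 0.680 of all 26G signal in High and 12.22% ± 3.54 in Low, and without F31C3.14 and F31C3.16 these shares were 4.65% ± 0.366 in High and 3.91% ± 1.48 in Low.

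E01G4.7, a pseudogene on chromosome II and on the list of ERGO-1 targets given below, had 369, 344 and 307 normalized 26G reads in High, against 568, 393 and 530.3 in Low. It was the only locus of the 20 whose groups did not overlap, beside 11.4% of all features (0.735% with High above and 10.7% with High below), and its log2 difference of -0.53 ± 0.29 (SE; adjusted p = 0.518 by limma) was close to the median of all features and turned to 0.14 with equal totals. Its 22G level overlapped between groups, at 2799 ± 131 in High and 2834 ± 87.9 in Low. Y57G11C.51 on chromosome IV had 187, 198 and 175 26G reads in High, against 342, 184 and 249 in Low (log2 difference -0.42 ± 0.34, adjusted p = 0.583 by limma, and 0.25 with equal totals). W04B5.1, a pseudogene on chromosome III and also on the ERGO-1 list, had 62.8, 41.7 and 50.7 in High, against 48.5, 36.7 and 63.5 in Low. CD4.8 had 34.1, 39.1 and 28.6 in High, against 50.0, 36.7 and 36.0 in Low. In these 3 loci the groups overlapped. C36A4.11, the remaining locus of the set on the ERGO-1 list, had a mean of 3.60 26G reads and was not tested in that class.

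A list of 18 ERGO-1 targets was written from general knowledge of the literature and was not checked against published lists. It was written with earlier results of these data known, so nothing is read from its counts. All 18 were tested in the 22G class by limma, with a median log2 difference of -0.12. In High worms 0 were higher, beside 5.64% of all features, and 5 were lower, beside 2.66%. By limma 9 of the 18 had an unadjusted p under 0.05. The 5 called lower, T08B6.2, Y17D7C.3, Y17D7B.4, W04B5.2 and K02E2.6, are all among the 8 identifiers left out of the set by name. The 3 that belong to the set, E01G4.7, W04B5.1 and C36A4.11, were not called. A second list held 45 names, synonyms included, of genes that make, amplify or bind 22G RNAs. Of these names 39 were in the table, and 36 were tested for 22G RNAs against them. Limma called 0 higher and 0 lower, beside 5.64% and 2.66% of all features, and edgeR and DESeq2 on recovered reads called 0. At an unadjusted p under 0.05 there were 2, beside 1658 of all 9402 features: rde-12, a helicase of the RNAi pathway, with 618 ± 52.4 in High and 712 ± 18.9 in Low, and wago-4, an Argonaute, with 1322 ± 74.95 in High and 1154 ± 112 in Low. The list's median log2 difference was 0.01. Of these genes hrde-1, the nuclear Argonaute, reached the count of 2000 used to choose the loci, with 2665 ± 74.9 in High and 2837 ± 181 in Low.

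**Figure D4:**
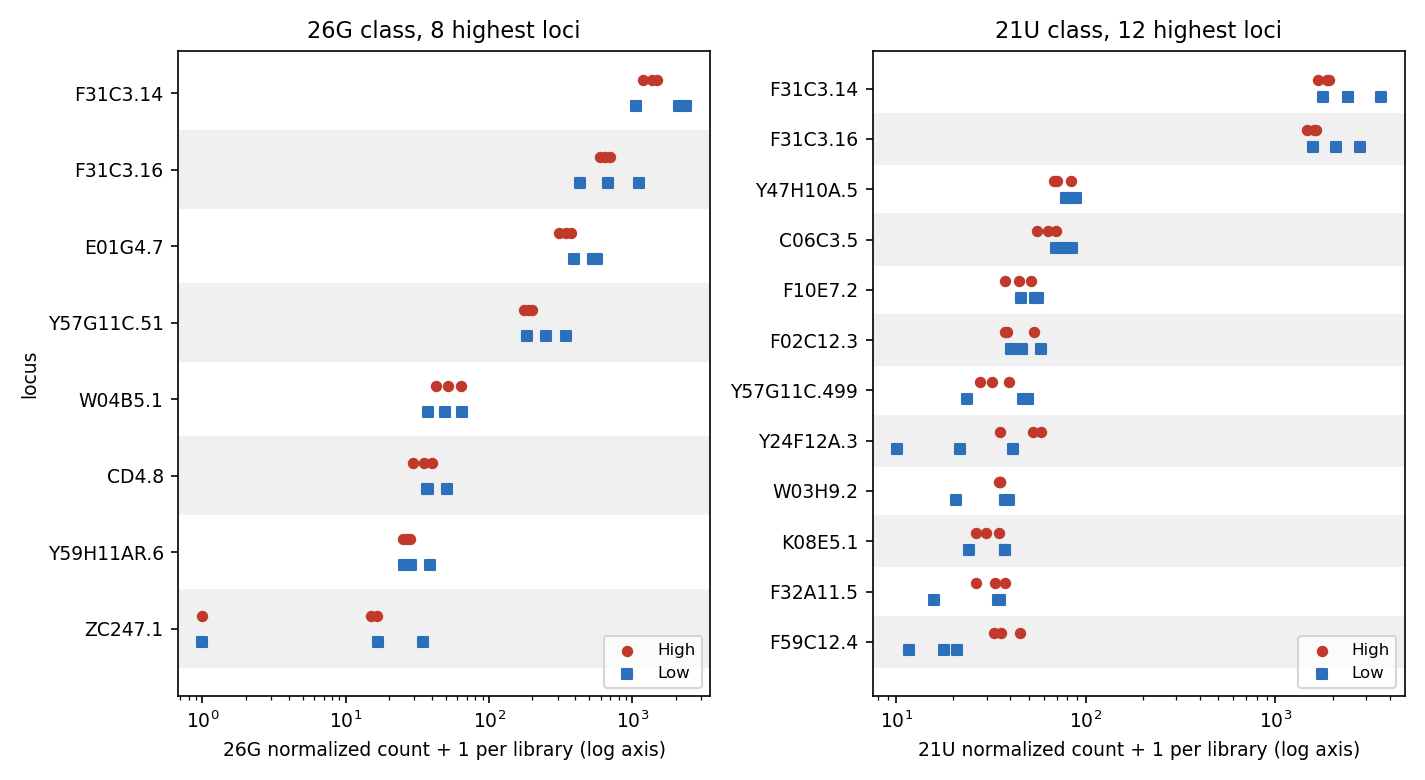
Normalized count plus 1 per library (log axes) in the 26G class (left, 8 loci with the highest mean) and the 21U class (right, 12 loci), with 3 High libraries as circles above 3 Low libraries as squares in each row. F31C3.14 and F31C3.16 are highest in both classes, and on the right F59C12.4 has High libraries at 31.9 to 44.04 normalized reads and Low libraries at 10.6 to 19.9.

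In the 21U class, also not used to choose the loci, all 94 had a read and 72 reached the mean of 5, with a median of 11.06 normalized reads over the 94; the 62 named features had a median of 11.4, and 46 of them reached the minimum. In limma 0 of the 72 passed, beside 0.169% of all 592 features tested, and 5 of the 72 and 124 of the 592 had an unadjusted p under 0.05; edgeR called 0 of the 72 and DESeq2 0 of the 8 to which it gave an adjusted p. The median log2 difference was -0.16 over the 72 loci and -0.38 over all features, and 52 of the 72 lay above that overall median, which was -0.10 with TMM scaling and -0.17 with equal totals. High and Low did not overlap in 9 loci, beside 31.1% of all features, with High above in 4, beside 4.22%, and below in 5, beside 26.9%. As in the 26G class, the total of Low replicate 1 was the highest, 59360 against 41430 to 45567 in the others, and its part was not tested beyond leaving it out.

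F31C3.14 had the most reads in this class too, with 1925, 1671 and 1867 normalized 21U reads in High, against 3584, 1791 and 2400.4 in Low. Its log2 difference was -0.45 ± 0.23 (SE; adjusted p = 0.290 by limma), and the groups overlapped. It was -0.14 with TMM scaling, -0.21 with equal totals, -0.19 without Low replicate 1 and -0.69 without Low replicate 2, and it did not pass in any of these. The 94 loci held 11.0% ± 0.829 of the 21U signal in High and 12.0% ± 1.31 in Low, and without F31C3.14 and F31C3.16 they held 2.96% ± 0.101 in High and 2.68% ± 0.473 in Low. Next by count, not scaled by length, were Y47H10A.5 with a mean of 77.6, the pseudogene C06C3.5 with 68.8, F10E7.2 with 47.2 and F02C12.3 with 44.6, and 20 of the 94 had a mean of at least 20.

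F59C12.4, the locus with the highest 22G ratio, had 44.04, 34.6 and 31.9 normalized 21U reads in High, against 10.6, 19.9 and 16.9 in Low. Every High library lay above every Low library, at a log2 difference of 1.20 ± 0.33, the smallest adjusted p of the set (limma, 0.105). Without Low replicate 1 this locus passed, at 0.96 and an adjusted p of 0.0173, and it passed under no other alternative (limma adjusted p from 0.071 to 0.38). Y24F12A.3, a pseudogene on chromosome IV, had 34.1, 56.8 and 51.6 in High, against 9.09, 20.6 and 40.2 in Low (log2 difference 1.19 ± 0.48, adjusted p = 0.192 by limma), with overlapping groups. It passed without Low replicate 3, at 1.68 and an adjusted p of 0.0467, but stood at 0.67 without Low replicate 1 (adjusted p = 0.103 by limma) and passed under no other alternative. Y24F12A.4, whose 22G profile nearly equals that of Y24F12A.3, averaged 14.1 ± 0.723 in High and 7.24 ± 2.63 in Low. In the 22G class both Y24F12A pseudogenes were lower in High libraries than in Low libraries, at ratios of 0.832 and 0.820.

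The other loci with an unadjusted p under 0.05 in the 21U class were lower in High worms. The pseudogene Y39E4B.14 on chromosome III had 20.9, 17.8 and 18.8 normalized 21U reads in High, against 28.8, 36.7 and 31.8 in Low (log2 difference -0.72 ± 0.29, adjusted p = 0.192 by limma), and the pseudogene ZC239.1 averaged 4.34 ± 1.03 in High and 8.65 ± 0.381 in Low. In both the groups were apart, and neither passed the adjusted threshold. The difference of Y39E4B.14 was -0.42 with TMM scaling and -0.37 with edgeR. The 22G level of Y39E4B.14 was slightly higher in High, with 9441, 9238 and 8771 in High, against 8515, 8762 and 8459.8 in Low. Its 22G ratio was 1.07, and its log2 difference of 0.09 ± 0.05 (SE) was not called (adjusted p = 0.386 by limma).

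ZC247.1, the locus with the most 22G reads, was listed at 0 in some libraries of the smaller classes. It had 15.4, 0 and 13.9 normalized 26G reads in High, against 0, 33.6 and 15.9 in Low, and 41.8, 0 and 30.3 normalized 21U reads in High, against 34.9, 42.0 and 0 in Low. The zeros fell in High replicate 2 in both classes, and in Low replicate 1 for 26G and Low replicate 3 for 21U. Of 169 features with a 21U mean of at least 20, ZC247.1 and anc-1 were the 2 listed at 0 in a library while having at least 10 in every other nonzero library. Without Low replicate 1, limma called ZC247.1 lower in High worms in the 26G class (adjusted p = 0.00356), with High replicate 2 listed at 0. ZC247.1 is among the loci behind the medians of both classes.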

How the data were processed

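Per the labels' protocols, 1 µg of total RNA from each of 3 High and 3 Low cultures was dephosphorylated, phosphorylated at its 5′ ends and cloned, and inserts from 18 to 36 bp were kept. The submitters' processing notes name DESeq2 1.8.1, featureCounts 1.4.6, Bowtie 1.1.1 and cutadapt 1.7.1, with no role. Not given in the sources used here were genome build, annotation, strand, class definitions and the treatment of reads with several matches. Each deposited signal is a read count that the authors divided by a size factor per library: every nonzero value was a whole multiple of 1 step (100% within 0.01 reads), the same in the 3 tables.

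From these values, features with a mean of at least 5 were tested with limma-trend (limma 3.58.1, R 4.3.3) on log2(value + 1), as a two-sided test of High minus Low, adjusted by Benjamini-Hochberg over each table, with a threshold of 0.05. Fold changes on this scale understate those of low features. Per-kb levels use exon lengths of Ensembl 115, and gene names those of RefSeq. The members and gene lists were chosen with earlier results of these data known. Named loci are those highest by level, ratio, density, spread, 26G or 21U, nearest the limits, with equal or neighbouring values, or on the ERGO-1 list. Alternatives tried were pseudocounts of 0.5 and 5, a minimum mean of 20, no filter, TMM scaling, equal totals, the replicate number as a block, limma without trend, edgeR 4.0.16, DESeq2 1.42.0 and each library left out; pairs of equal values counted once were added after seeing the data. On whole reads the fit was tested on simulated data with known changes: for the 22G comparison (9402 features) it recovered 57 of 100 changes of 2-fold and 85 of 100 of 4-fold, for 26G (272 features) 3 of 30 and 18 of 30, and for 21U (592 features) 20 of 100 and 77 of 100. False calls were 9 of 151 calls for 22G, 0 of 21 for 26G and 0 of 97 for 21U. The changed features were drawn from all tested features, so recovery at the 22G level of these loci was not measured.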

Additional observations from a re-analysis of the deposited data

How the results depend on the processing

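The rule found the same 94 loci after TMM scaling and after equal library totals. The count of 22G features called, 780, stayed within 1.5 times under all 16 alternatives. In the 22G class 14 loci were called, against 4 by limma without trend, beside 780 and 524 of 9402 features. Leaving out 1 library gave 8 to 16 loci, beside 634 to 797 features. It gave 9 loci when High replicate 2 was left out and 8 when High replicate 3 or Low replicate 2 was. The 22G level and ratio made the choice, so nothing is read from these counts of loci. The share of the 22G signal with equal pairs counted once was 21.7% in High and 23.1% in Low.

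In the 26G class, 0 features and 0 loci were called, and leaving out 1 library gave 0 to 1 of each. The 1 call was ZC247.1 without Low replicate 1 (limma adjusted p = 0.00356), with High replicate 2 listed at 0. The sign of several 26G differences turned: F31C3.14 stood at 0.051 with TMM scaling, 0.30 with equal totals, 0.18 with edgeR and 0.18 with DESeq2; E01G4.7 at 0.14 with equal totals, 0.023 with edgeR and 0.018 with DESeq2; Y57G11C.51 at 0.25 with equal totals, 0.17 with edgeR and 0.17 with DESeq2; and CD4.8 at 0.16 with TMM scaling, 0.40 with equal totals, 0.33 with edgeR and 0.32 with DESeq2. W04B5.1 stood at -0.07 without High replicate 1 and -0.12 without Low replicate 2, in a range from -0.12 to 0.27 over the libraries left out. The cause was not tested.

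In the 21U class, 1 feature was called, against 28 with no filter, 2 with a minimum mean of 20, 2 with TMM scaling and 2 with edgeR. Leaving out 1 library gave 0 to 53, with 0 without High replicate 2, 0 without High replicate 3, 33 without Low replicate 1, 20 without Low replicate 2 and 53 without Low replicate 3. For the loci it gave 0 to 1.

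Same-numbered libraries correlated in their deviations at 0.034, 0.046 and 0.020 for 22G, at -0.083, -0.144 and -0.285 for 26G and at 0.083, -0.0012 and -0.064 for 21U. Libraries of different numbers correlated at -0.11 to 0.21 over the 3 classes. With 3 libraries per group, these values cannot show whether cultures were paired by number. With the replicate block, 16 loci were called for 22G, beside 782 of 9402 features. With the same block 0 loci and 0 features were called for 26G and for 21U.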
